A study of Mus musculus with 24 samples.

Results

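The regions described here are H3K4me3 peak regions with a higher share of reads after tChIP-Seq than after single ChIP-Seq, in both mouse lines of the study. They were chosen from measured values. A region had to lie on chromosomes 1 to 19 and hold 10 or more counts in each of the 12 H3K4me3 libraries. The log2 ratio of its mean tChIP-Seq CPM (counts scaled to a library total of 1000000) to its mean single ChIP-Seq CPM had to be 0.6 or more in each line. Of the 17993 regions of the deposited counts, 17374 lay on these chromosomes, 14679 also had the 10 counts and are called eligible here, and 1076 met the rule, or 7.33% of the eligible regions. The ratio reached 0.6 in 2867 eligible regions in the Rosa line and in 1821 in the Camk2a line, so the 1076 regions were 37.5% of the first set and 59.1% of the second. A fall of the same size in both lines was found in 18 eligible regions.

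The study asked whether histone marks of a chosen cell type can be read from whole tissue by purifying chromatin through a tagged histone, FLAG-tagged H2B (H2B-FLAG). In single ChIP-Seq, chromatin from cerebral cortex of C57BL/6 mice underwent 1 precipitation, with an antibody to H3K4me3. In tChIP-Seq (tandem ChIP-Seq) the chromatin was first purified through the FLAG tag, and the H3K4me3 precipitation followed. Each lysate came from 2 animals. Both lines carry H2B-FLAG behind the CAG promoter at the Rosa26 locus. In the Rosa line (Rosa CAG-H2B-FLAG), Vasa-Cre had removed the floxed stop cassette, the animals were kept as heterozygotes, and the tag is expressed in almost all cells of the cortex. In the Camk2a line (Rosa26 CAG-floxed-pA-H2B-FLAG/ CaMKCreERT2), the stop cassette is removed only where the Camk2a promoter drives a tamoxifen-dependent Cre, mainly in excitatory neurons. These animals were double-heterozygous males given 1 mg of tamoxifen per day for 5 days at 8 weeks of age, and tissue was taken about a month later. No tamoxifen treatment, sex or exact age is given for the Rosa animals in the sources used here, so line, Cre, treatment and sex cannot be told apart in comparisons between lines. Each of the 4 groups, single ChIP-Seq and tChIP-Seq in each line, had 3 libraries.

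H3K4me3 is the trimethylated form of lysine 4 of histone H3 and marks the first nucleosomes of transcribed genes. It is also laid down at CpG-rich promoters of genes that are hardly transcribed, through enzymes that recognise unmethylated CpG, so that many silent developmental genes carry low levels of it. Peaks at broadly expressed housekeeping genes are in general tall and sit at start sites.

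Total counts per library lay between 6316125 and 8644574 in single ChIP-Seq of the Rosa line, between 1457261 and 1828371 in its tChIP-Seq, between 4063200 and 4233144 in single ChIP-Seq of the Camk2a line and between 2709729 and 3049130 in its tChIP-Seq. The 1076 regions held 1.03% ± 0.0182 of the single ChIP-Seq reads and 2.40% ± 0.0334 of the tChIP-Seq reads of the Rosa line, and 1.22% ± 0.0303 and 2.41% ± 0.0471 in the Camk2a line (SD, n = 3 libraries each). Their median count per library was 24 to 29 in tChIP-Seq of the Rosa line and 33 to 57 in the other groups. Among genes that mark cortical cell types, 11 of 12 excitatory neuron genes had an eligible region at a start site. This held for 7 of 10 astrocyte, 7 of 11 oligodendrocyte and 0 of 11 microglial genes. Median single ChIP-Seq values of these regions were 96.6 CPM for excitatory neurons, 71.5 CPM for astrocytes and 62.4 CPM for oligodendrocytes. Eligibility also asked for 10 counts in tChIP-Seq of the Camk2a line, where the tag is expressed mainly in excitatory neurons. These numbers of genes therefore do not measure the cell types of the tissue. Because the mark was read from bulk tissue, more cells with the mark and more of the mark per cell cannot be told apart.

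Sequences of 200 bases are shown because the regions differed from the rest in base composition. Each is the stretch without annotated exons that lies closest to the middle of its region, given 5′ to 3′ on the plus strand of mm9, with CG dinucleotides in capitals. The first 5 belong to regions among the 12 with the highest ratio in both lines: Onecut3 (chr10:79957447-79957646), Gja3 (chr14:57676441-57676640), Fev (chr1:74929241-74929440), Wnt3 (chr11:103635079-103635278) and the intergenic region near Shank2 (chr7:151164455-151164654). Dnmt3a (chr12:3833763-3833962) had the highest ratio among regions within introns. Irf2bp2 (chr8:129115765-129115964) is shown for contrast, as the tallest eligible region at a protein-coding start site.
Onecut3: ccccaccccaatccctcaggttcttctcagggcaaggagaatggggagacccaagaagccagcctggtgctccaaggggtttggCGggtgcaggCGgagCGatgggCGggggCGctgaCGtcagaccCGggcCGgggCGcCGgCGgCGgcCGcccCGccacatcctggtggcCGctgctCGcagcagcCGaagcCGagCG
Gja3: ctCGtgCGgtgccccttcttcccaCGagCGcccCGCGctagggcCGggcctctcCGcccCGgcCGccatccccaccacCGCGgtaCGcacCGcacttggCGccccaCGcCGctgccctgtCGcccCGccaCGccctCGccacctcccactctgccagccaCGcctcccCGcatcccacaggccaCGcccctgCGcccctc
Fev: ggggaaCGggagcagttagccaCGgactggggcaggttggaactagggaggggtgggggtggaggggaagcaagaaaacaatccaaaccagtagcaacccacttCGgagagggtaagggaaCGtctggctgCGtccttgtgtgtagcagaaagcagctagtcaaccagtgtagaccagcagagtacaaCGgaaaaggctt
Wnt3: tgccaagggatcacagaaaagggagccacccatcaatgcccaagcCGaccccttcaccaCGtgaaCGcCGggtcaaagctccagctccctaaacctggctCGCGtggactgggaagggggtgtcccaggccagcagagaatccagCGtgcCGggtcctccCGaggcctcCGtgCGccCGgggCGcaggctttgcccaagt
near Shank2: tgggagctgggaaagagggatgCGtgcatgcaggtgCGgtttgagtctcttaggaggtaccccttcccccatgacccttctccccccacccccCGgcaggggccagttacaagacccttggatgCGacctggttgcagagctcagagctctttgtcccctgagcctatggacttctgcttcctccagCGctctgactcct
Dnmt3a: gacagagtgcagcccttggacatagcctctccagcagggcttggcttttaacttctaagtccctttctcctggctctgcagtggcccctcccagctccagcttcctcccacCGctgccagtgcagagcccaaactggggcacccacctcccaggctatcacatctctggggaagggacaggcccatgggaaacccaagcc
Irf2bp2: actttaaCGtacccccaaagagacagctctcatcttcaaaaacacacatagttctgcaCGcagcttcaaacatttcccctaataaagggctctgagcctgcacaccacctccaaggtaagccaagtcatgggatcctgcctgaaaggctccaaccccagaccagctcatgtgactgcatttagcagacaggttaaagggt
These stretches held 25 CG dinucleotides in Gja3, 19 in Onecut3, 13 in Wnt3, 6 in Fev, 5 near Shank2, 1 in Dnmt3a and 2 in Irf2bp2. Stretches rich and poor in CG were thus both present among the regions with the highest ratios, but a stretch does not stand for its whole region. Over their full width, the first 5 regions all had a GC content between 63.2% (Wnt3) and 74.0% (Onecut3). The median of eligible regions was 54.1%.

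By the rule, both ratios were high in all 1076 regions, and the following values are a description without a test. The median log2 ratio was 1.20 in the Rosa line, with quartiles of 0.89 and 1.57, and 0.97 in the Camk2a line, with quartiles of 0.75 and 1.23. Over all eligible regions the medians were 0.04 and -0.02. Both ratios were 1 or more in 371 regions, 1.5 or more in 61 and 2 or more in 4. The ratio was higher in the Rosa line in 721 regions. Across the 14679 eligible regions, the ratios of the 2 lines had a Pearson's r of 0.34, where regions share library depth and base composition and are not independent. All 3 tChIP-Seq libraries lay above the 3 single ChIP-Seq libraries in the Rosa line in 1057 of the 1076 regions (35.4% of the eligible regions) and in the Camk2a line in 1044 (30.5% of the eligible regions). Both held in 1026 (15.8% of the eligible regions), and since the rule used this contrast nothing is read from these counts.

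**Figure D1:**
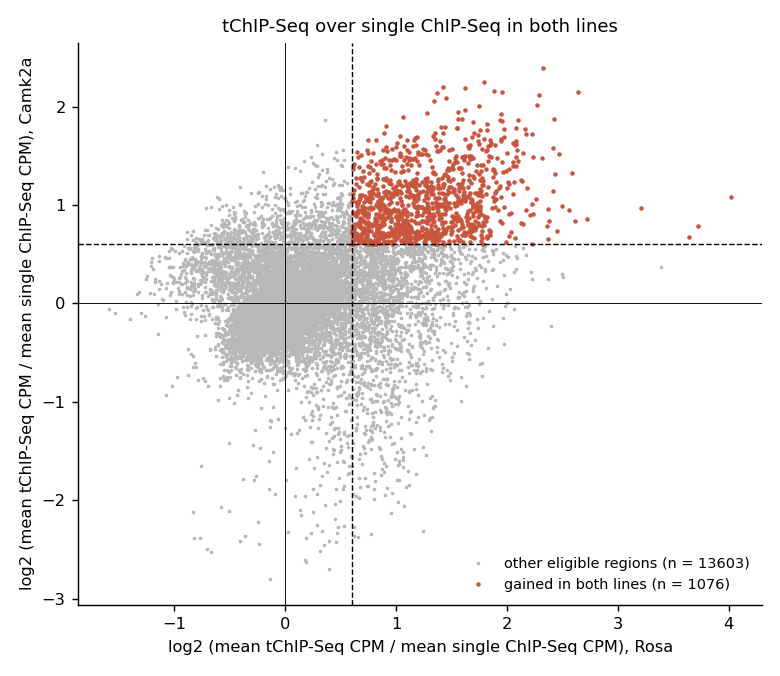
Log2 ratio of mean tChIP-Seq CPM to mean single ChIP-Seq CPM in the Rosa line (x axis) and in the Camk2a line (y axis), with 1 point for each of 14679 eligible regions. The dashed lines mark 0.6, and the 1076 regions gained in both lines (red) are, by the rule, all the points at or beyond both lines.

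The same measure was read in libraries that had not been used for the choice. When the rule was applied to 2 replicate numbers, it chose 1106, 1210 and 1165 regions with replicates 1, 2 and 3 left out. In the libraries left out, the ratio was again 0.6 or more in both lines in 71.0%, 63.2% and 67.3% of the regions chosen, against 7.94%, 7.03% and 7.68% of the eligible regions. It was above 0 in both lines in 96.8%, 94.3% and 94.8%, against 33.7%, 31.7% and 32.6% of the eligible regions. Between 939 and 973 of the regions chosen from 2 replicates were also among the 1076.

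The 12 regions with the highest lesser ratio of the 2 lines had low counts in single ChIP-Seq. The region at the start site of Fgf8, a growth factor that patterns the embryo, spans 911 bp. It had 4.08, 2.89 and 4.12 CPM in the 3 single ChIP-Seq libraries of the Rosa line and 15.3, 16.2 and 24.0 CPM in its tChIP-Seq libraries. In the Camk2a line, Fgf8 had 3.15, 3.07 and 3.45 CPM in single ChIP-Seq and 20.0, 13.7 and 17.0 CPM in tChIP-Seq. All tChIP-Seq libraries of Fgf8 lay above all single ChIP-Seq libraries, which the choice by ratio favoured. Its log2 ratios were 2.32 and 2.39. At the start site of Onecut3, which encodes a homeodomain transcription factor (chr10:79957417-79958951), tChIP-Seq gave 29.5, 30.5 and 41.2 CPM in the Rosa line and 19.7, 31.3 and 22.1 CPM in the Camk2a line. Its single ChIP-Seq libraries lay between 3.88 and 7.14 CPM. These 2 regions and those of Vwa2, which encodes an extracellular matrix protein, and Ccdc88b were the 4 with both ratios at 2 or more.

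The other regions described among the 12 with the highest ratios had the same form. Gja3, a connexin of the lens, went from 3.01 to 4.49 CPM over the 6 single ChIP-Seq libraries to 12.0 to 21.8 CPM over the 6 tChIP-Seq libraries. Fev, an ETS factor of serotonergic neurons, had 4.02 to 5.41 CPM in single ChIP-Seq and 15.1 to 21.6 CPM in tChIP-Seq. Wnt3, a secreted signalling protein, had 2.42 to 3.69 CPM in single ChIP-Seq and 8.71 to 15.3 CPM in tChIP-Seq. Ovol1, a zinc finger factor of epithelia, had a wider spread in single ChIP-Seq, from 1.41 to 3.69 CPM, and 10.8 to 15.8 CPM in tChIP-Seq. The regions of Fev, of Prph (peripherin, an intermediate filament of peripheral neurons) and of Chst5 (a sulfotransferase), like that of Ccdc88b, lay within gene bodies over exons. Their closest start sites were 164 bp (Prph), 1657 bp (Fev), 7112 bp (Ccdc88b) and 10447 bp (Chst5) away. The region near Shank2, which encodes a postsynaptic scaffold, lay 22454 bp from the closest start site. The region near Shank2 had the highest mean of the 12 in single ChIP-Seq, with 6.02 to 10.3 CPM against 27.4 to 37.1 CPM in tChIP-Seq. In none of the 12 did the 2 assays overlap within a line. The rule used this contrast, and 10 counts are 5.47 to 6.86 CPM in tChIP-Seq of the Rosa line. The choice thus favoured separate libraries, and nothing is read from their separation.

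**Figure D2:**
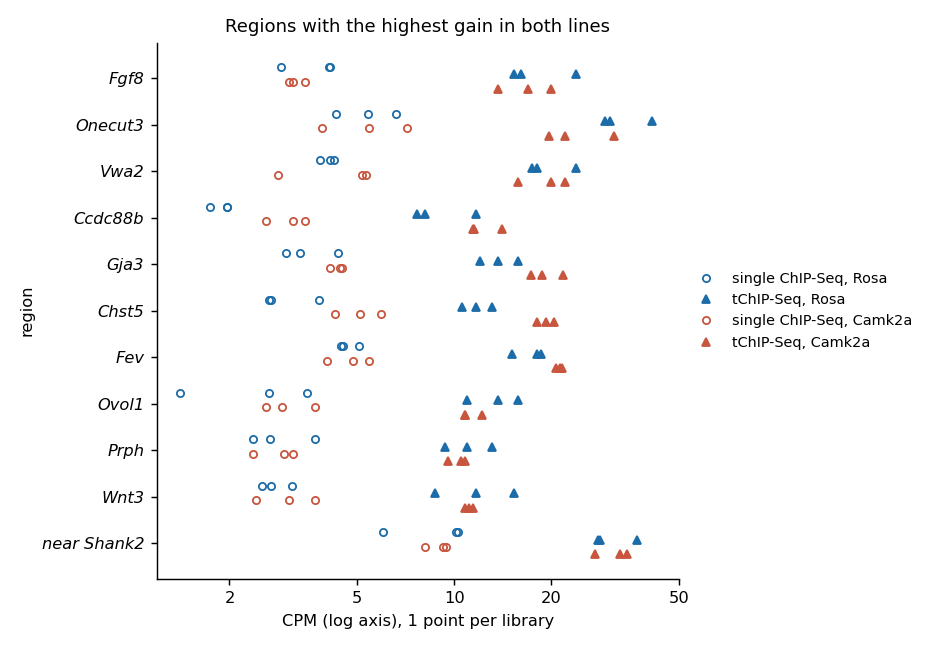
CPM (log axis) of 11 of the 12 regions with the highest ratio in both lines, with 1 point per library, circles for single ChIP-Seq, triangles for tChIP-Seq, blue for the Rosa line and red for the Camk2a line. The single ChIP-Seq libraries lie between 1.41 and 10.3 CPM and, within each region, below the tChIP-Seq libraries, which lie between 7.66 and 41.2 CPM. The regions were chosen by this contrast.

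At the threshold, the 3 regions just inside it were within an intron of Fat4 (ratios of 0.60 in both lines), at the start site of the noncoding gene Gm17552 (0.61 and 0.60) and near Ets1 (1.36 and 0.60). The 3 just outside were at 5730559C18Rik (0.75 and 0.60, the latter below 0.6 before rounding), near Calcoco1 (0.73 and 0.60) and near Nrarp (1.19 and 0.60). Within Fat4 and at Gm17552, the tChIP-Seq libraries of the Rosa line ranged from 12.4 to 21.9 CPM and from 13.7 to 26.8 CPM, so that membership of regions this close to 0.6 lay within the spread of the libraries.

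The 1076 regions were low and narrow in single ChIP-Seq. Their median was 7.53 CPM over the 6 single ChIP-Seq libraries, against 57.8 CPM for the eligible regions, and their median width was 999.5 bp against 1978 bp. Height, taken as CPM per kb of region, had a median of 7.45 against 27.3. In tChIP-Seq their median height was 16.7 CPM per kb, still below the 27.9 CPM per kb of all eligible regions. The minimum of 10 counts bears on these values. In the library with the lowest total, 10 counts are 6.86 CPM, and 474 of the 1076 regions had a lower mean than this in single ChIP-Seq, so these could be eligible only where tChIP-Seq gave more. With the same minimum of 6.86 CPM in every library, an alternative chosen after seeing the data, 440 of 13227 regions met the ratios, or 3.33%. These 440 had a median of 13.8 CPM and of 1335.5 bp, against 63.7 CPM and 2099 bp for the 13227.

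To separate the measure of height from the ratio, height was taken from replicate 1 of single ChIP-Seq and the ratio from replicates 2 and 3. In the lowest decile of height among eligible regions, from 2.12 to 8.94 CPM per kb, the median log2 ratio was 1.20 in the Rosa line and 0.66 in the Camk2a line. In deciles 2 and 3 it was 0.71 and 0.45 in the Rosa line and 0.34 and 0.18 in the Camk2a line. It was -0.15 and -0.18 in the tallest decile. Of the 1076 regions, 719 fell into the lowest decile, where they made up 49.0% of the regions, 256 into decile 2 and 79 into decile 3, and 5 into the upper 6 deciles. These shares are not separated from the ratio, because the choice of the 1076 regions used all 3 replicates, replicate 1 included. With the same CPM minimum in every library, the median ratios of the lowest decile were 0.76 and 0.43 and the share of regions gained in both lines was 23.5%. With no minimum at all, over the 17374 regions, the lowest decile had medians of 1.16 and 0.97.

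**Figure D3:**
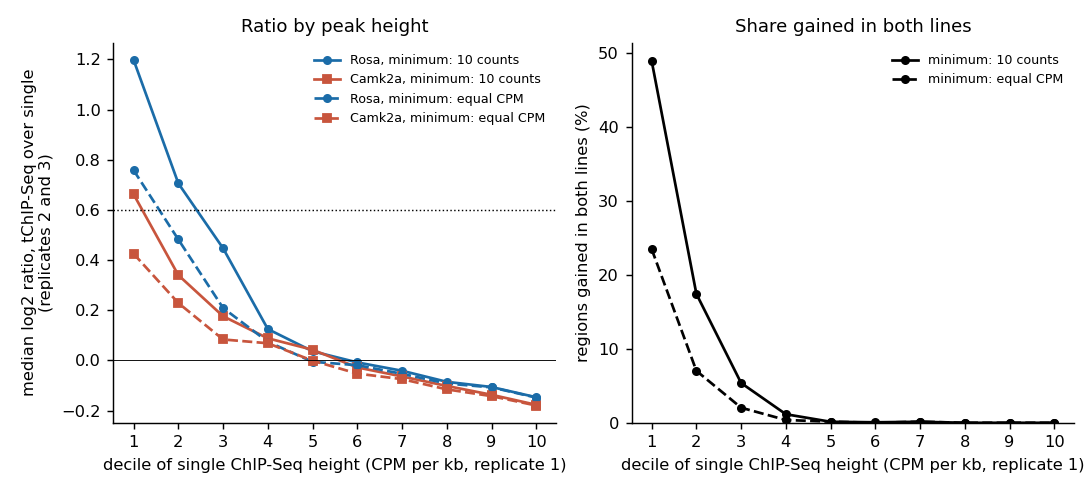
Left, median log2 ratio of tChIP-Seq to single ChIP-Seq (replicates 2 and 3) in each decile of single ChIP-Seq height (CPM per kb, replicate 1), for the Rosa line (blue circles) and the Camk2a line (red squares), with the minimum of 10 counts (solid lines) or an equal CPM minimum (dashed lines). Right, percentage of regions gained in both lines in each decile, which falls from 49.0% in the lowest decile to 5.38% in decile 3 with the minimum of 10 counts.

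A few regions gained in both lines had many reads in single ChIP-Seq, and they were wide. These reads are totals over the region, not heights per kb, and grow with width. The 5 with the most reads in single ChIP-Seq were an intergenic region near AY036118, the start sites of Cdk6, Kif26b and Mdga1, and a region of 6063 bp at Sfi1, the widest of all 1076. Cdk6, a cell cycle kinase, had 90.5 to 103 CPM over the 6 single ChIP-Seq libraries and 143 to 166 CPM over the 6 tChIP-Seq libraries (chr5:3340806-3345060). Kif26b, a kinesin family member, had 80.7 to 92.8 CPM in single ChIP-Seq and 121 to 162 CPM in tChIP-Seq. Mdga1, a surface protein of neurons, had 76.0 to 81.9 CPM in single ChIP-Seq and 118 to 155 CPM in tChIP-Seq. The ratios of Cdk6, Kif26b and Mdga1 lay between 0.62 and 0.79. In each the assays did not overlap within a line, a contrast that the rule had used.

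The regions near AY036118 and at Sfi1 differed from these by the size of the ratio in the Rosa line. At Sfi1 (chr11:3041347-3047409), single ChIP-Seq of the Rosa line gave 37.6, 25.7 and 30.9 CPM and tChIP-Seq gave 518, 447 and 564 CPM, a log2 ratio of 4.02. In the Camk2a line, Sfi1 had 110, 113 and 145 CPM in single ChIP-Seq and 262, 240 and 276 CPM in tChIP-Seq, a log2 ratio of 1.08. The ratios were 3.21 and 0.96 near AY036118 (chr17:39979976-39983423) and 3.72 and 0.79 near Ly6c2 (chr15:74915917-74917521). Sequences with 95% or more identity over at least 50% of the region were found elsewhere in mm9 for 4 of the 1076 regions, at Pisd-ps1, Pisd-ps2 and Acot5 and near Ttc1, a share of 0.372% against 0.307% of eligible regions. Reads in these 4 cannot be assigned to 1 locus with certainty. The search found no such copy of the regions at Sfi1, near AY036118 and near Ly6c2. It could not find shorter copies or copies missing from mm9, so it does not show that reads in these regions come from 1 locus.

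About as many regions lay away from annotated start sites as at them. A start site (TSS) of a protein-coding gene was overlapped by 513 regions (47.7%), against 82.0% of eligible regions, and only a noncoding TSS by 31 (2.88%, against 2.25%). Another 157 regions (14.6%, against 3.60%) lay in gene bodies over an exon, 112 (10.4%, against 2.96%) in introns and 263 (24.4%, against 9.22%) between genes. Read by class, 29.7% of the eligible exon regions, 25.7% of the intron regions and 19.4% of the intergenic regions were gained in both lines, but 4.26% of the regions at coding TSSs. Protein-coding TSSs on both strands were overlapped by 6 of the 1076 regions (0.558%), against 7.80% of eligible regions. The 532 regions without a TSS had a median distance of 9983 bp to the closest one, which compares with 9902 bp for the 2317 eligible regions without a TSS. With the same CPM minimum in every library, 62.7% of 440 regions overlapped a coding TSS, against 86.9% of 13227.

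**Figure D4:**
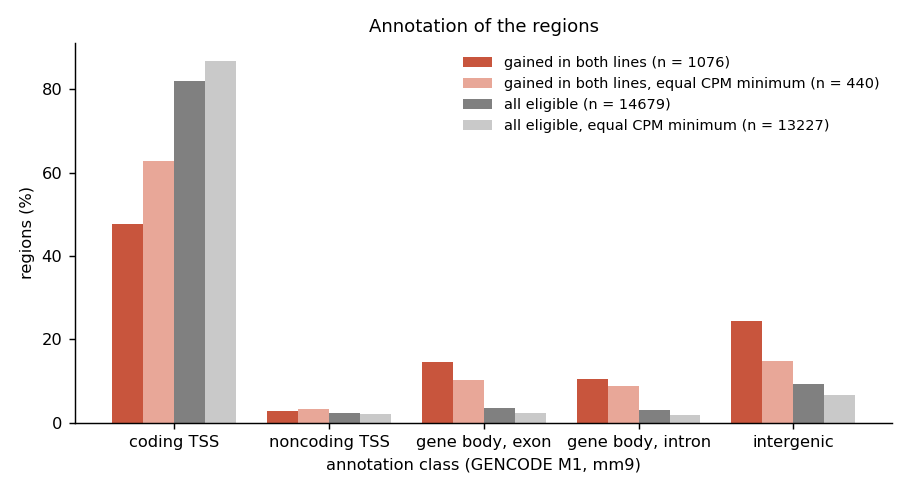
Percentage of regions in each annotation class, for the 1076 regions gained in both lines (dark red), the 440 gained with an equal CPM minimum (light red) and all eligible regions under each minimum (dark and light grey). Coding TSSs make up 47.7% of the regions gained in both lines and 82.0% of the eligible regions, while each class without a TSS has a larger share among the regions gained.

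Width and class went together. The share with a TSS was close to that of other regions among narrow regions and lower among those above 1000 bp. Among eligible regions of 750 bp or less, 39.8% were gained in both lines, and among those above 2000 bp 0.680%. Of the regions of 750 bp or less, 30.0% of those gained and 28.3% of the others overlapped a TSS. Between 1000 and 1500 bp these shares were 58.4% and 74.7%, and between 1500 and 2000 bp 69.8% and 91.3%. Among the regions gained, the median single ChIP-Seq height was 8.44 CPM per kb at coding TSSs, 7.02 over exons, 6.94 in introns and 6.86 between genes. Over all eligible regions, the median ratio was 0.00 in the Rosa line and -0.05 in the Camk2a line at coding TSSs, and 0.68 and 0.43 over exons.

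The regions were GC-rich for their width. Their median GC content was 59.6% (quartiles of 55.6% and 63.0%), against 54.1% in eligible regions, and they held 52.1 CG dinucleotides per kb against 43.3. The ratio of observed to expected CG dinucleotides was 0.60 in both sets. In every width class the regions gained in both lines had a higher median GC content than the others, by 58.7% to 54.7% up to 750 bp and by 60.7% to 54.1% above 2000 bp. Regions gained in 1 line alone also had a higher median GC content than eligible regions, 57.1% in the Rosa line and 56.2% in the Camk2a line. A GC content of 50% or more together with an observed to expected ratio of 0.6 or more, a composition typical of CpG islands, was found in 48.7% of the regions and in 42.9% of the eligible regions. Regions over exons had the highest median density, 61.4 CG dinucleotides per kb, and those in introns the lowest, 34.8 per kb. The regions lost in both lines were fewer and less GC-rich, with a median GC content of 50.4% in 18 regions.

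The central 300 bp of each region were searched on both strands for 12 short motifs, none of which contains another. Besides the 5 given next, these were TGACTCA (AP-1), TGACGTCA (CRE), CAGATG (an E-box) and the motifs of MEF2, CTCF, REST and RFX, each present in at most 2.70% of the 1076 windows apart from the E-box (15.1%, against 13.4% of eligible windows). GGGCGG, bound by SP and KLF factors, was present in 555 of the 1076 windows (51.6%) and in 44.6% of eligible windows. CCGGAAG, the core bound by ETS factors, was present in 4.28% against 8.11%, and CCAAT in 21.1% against 24.1%. The motif of NRF1 was present in 1 window (0.456% of eligible windows) and that of YY1 in 0 (0.450% of eligible windows). At coding TSSs, GGGCGG was present in 57.3% of the windows gained in both lines and 45.5% of the eligible windows. GC content moved with these shares, and its part in them was not tested.

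By chromosome, the share of eligible regions that were gained in both lines ranged from 5.52% on chromosome 16 to 9.89% on chromosome 15. Another region lay within 5000 bp of 150 of the 1076 regions (13.9%, as in 13.9% of eligible regions), and this neighbour was itself gained in both lines in 28 cases. The neighbour had more single ChIP-Seq reads in 95 of the 150 cases, and its median ratios were 0.74 in the Rosa line and 0.46 in the Camk2a line.

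The genes at these regions were grouped by lists of cell type markers, gene families and developmental genes. A region was counted for a gene only where it overlapped a TSS of that gene, so regions elsewhere in or near a listed gene are not in these counts. Of the 12362 eligible regions that overlap a TSS, 544 (4.40%) were gained in both lines, and the counts of each list are set against this share. No region gained in both lines was found among 88 regions at cytosolic ribosomal protein genes, 80 at nuclear genes of oxidative phosphorylation, 22 at clustered histone genes, 19 at immediate early genes and 6 at clustered protocadherins, nor at the 1 region of the olfactory and vomeronasal receptor genes. The median single ChIP-Seq height was 33.6 CPM per kb at the ribosomal protein genes and 36.6 CPM per kb at the genes of oxidative phosphorylation, where the median ratios lay between -0.19 and -0.10. Among cell type markers, 0 of 12 regions of excitatory neuron genes, 0 of 7 of astrocyte, 0 of 8 of oligodendrocyte, 0 of 3 of endothelial and 0 of 3 of pericyte and meningeal genes were gained in both lines, and microglial genes had no eligible region. The excitatory neuron regions had a median ratio of -0.54 in the Rosa line and 0.41 in the Camk2a line. The oligodendrocyte regions had -0.13 and -1.53. In the same order, the medians were 0.53 and -0.85 for astrocyte, 0.54 and -1.09 for endothelial and 0.52 and -1.60 for pericyte and meningeal regions. In the Rosa line, 3 of 7 astrocyte, 1 of 3 endothelial and 1 of 3 pericyte and meningeal regions were gained, against 0 of each in the Camk2a line. For oligodendrocyte regions, 1 of 8 was gained in each line.

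Of 8 regions of inhibitory neuron genes, 2 were gained in both lines, and the median ratios of the 8 were 0.50 in the Rosa line and -0.25 in the Camk2a line. At Pvalb, the calcium-binding protein parvalbumin of fast-spiking interneurons, single ChIP-Seq gave 2.39, 3.93 and 2.06 CPM and tChIP-Seq 13.1, 11.2 and 8.92 CPM in the Rosa line. In the Camk2a line Pvalb had 4.12, 4.25 and 3.45 CPM in single ChIP-Seq and 10.8, 11.2 and 8.12 CPM in tChIP-Seq. The assays did not overlap in either line, but the rule used this contrast. The minimum of 10 counts also asked for 5.47 CPM or more in tChIP-Seq of the Rosa line, so nothing is read from the separation. At Reln, the secreted protein reelin, the levels were higher and the ratios smaller, 0.72 and 0.73, with 29.8 to 41.3 CPM over the single ChIP-Seq libraries and 44.8 to 66.1 CPM over the tChIP-Seq libraries.

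Genes that pattern the embryo were among those gained. Of 3 regions at Hox cluster genes, 2 were gained in both lines, among them Hoxd1 (1.66 in the Rosa line and 1.25 in the Camk2a line). Of 22 regions at other homeobox and developmental factors, 19 reached 0.6 in the Rosa line and 3 in the Camk2a line, where 14.2% and 8.80% of all regions that overlap a TSS did. The 2 that reached it in both were Isl1, a LIM homeodomain factor of motor neurons (2.14 and 1.53), and Foxa1, a forkhead factor of endoderm and floor plate (2.01 and 1.24). Of 302 regions at Zfp zinc finger genes 6 were gained in both lines, led by Zfp423 (1.27 and 1.52) and Zfp64 (1.07 and 1.45) and including Zfp819 and Zfp296. Of 25 at imprinted genes 1 was, Kcnq1, a potassium channel gene (1.72 and 0.95). Of 7 at germline genes 2 were, Tdrd6 (2.06 and 1.39) and the shared start of Ribc2 and the meiotic cohesin gene Smc1b (0.86 and 1.06).

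After these counts had been seen, 6 families of signalling and developmental genes were added, so their counts describe the regions and support nothing further. Regions at the TSS of Wnt ligand genes were gained in both lines in 9 of 17 cases, at Fgf ligand genes in 3 of 14, at Bmp and Gdf ligand genes in 3 of 11, at Frizzled receptor genes in 1 of 10, at Fox genes in 1 of 24 and at Sox genes in 0 of 14. Regions within genes that miss the TSS, such as further ones at Wnt6, Wnt10a and Foxe3, were not counted. The 9 Wnt regions at a TSS belonged to Wnt3, Wnt5a, Wnt6, Wnt9b and Wnt16, with 1 each, and to Wnt7b and Wnt11, with 2 each. Wnt9b lies on chromosome 11 next to Wnt3 and had 5.33 to 9.35 CPM over the 6 single ChIP-Seq libraries and 17.6 to 22.1 CPM over the 6 tChIP-Seq libraries. Wnt5a was wider, at 2886 bp, with 19.4 to 26.3 CPM in single ChIP-Seq and 38.9 to 63.8 CPM in tChIP-Seq. The Fgf regions were those of Fgf8, Fgf14 and Fgf18, the Gdf regions those of Gdf6, Gdf7 and Gdf10, and the Frizzled region that of Fzd10, which had a mean of 41.1 CPM in single ChIP-Seq and 98.7 CPM in tChIP-Seq of the Rosa line.

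The lines were then compared within each assay, a contrast that the rule did not use, although it used the same libraries and asked for a gain in both. All 17993 regions entered each fit, with no filter on low counts, and all 1076 regions were tested in edgeR's quasi-likelihood test at an adjusted p under 0.01 (Benjamini-Hochberg over 17993 regions). In tChIP-Seq, 147 of the 1076 regions (13.7%) were higher in the Camk2a line, where 17.0% of all regions were, and 62 (5.76%) were lower, where 14.6% of all regions were. The median log2 fold change of the 1076 regions was 0.11, and -0.01 over eligible regions. With library totals in place of TMM factors the counts were 112 higher and 80 lower, so that the share of higher calls fell from 70.3% to 58.3%, and the median log2 fold change was 0.04. With the Wald test of DESeq2 they were 71 and 31.

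Among the 147 regions, the 5 with the largest fold changes and separate libraries were at Arsi, near Neurod2, and at Atp12a, Glra1 and Scnn1g. The region near Neurod2, a bHLH factor of excitatory neurons, lies 8169 bp from its TSS (chr11:98181478-98182793). It had 6.02, 13.7 and 7.55 CPM in tChIP-Seq of the Rosa line and 25.3, 25.2 and 21.4 CPM in the Camk2a line, all above the former (log2 fold change of 1.48 ± 0.22 SE, adjusted p = 2.8e-08 by edgeR). The difference between the lines in single ChIP-Seq was 0.56 ± 0.19 on the log2 scale near Neurod2 (adjusted p = 0.060 by edgeR). Glra1, a glycine receptor subunit, had 7.66, 9.95 and 10.3 CPM in the Rosa line and 19.7, 23.0 and 22.9 CPM in the Camk2a line (1.31 ± 0.22, adjusted p = 4.36e-07 by edgeR). Atp12a, a proton pump subunit, and Scnn1g, a sodium channel subunit, were higher by 1.46 ± 0.23 and 1.28 ± 0.23.

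Among the 62 regions lower in the Camk2a line, the 5 largest fold changes with separate libraries were at Arhgef16, Gsc, Foxe3, Phox2a and Igf2bp3. Gsc, a homeodomain factor of the early embryo, had 18.6, 21.2 and 20.6 CPM in tChIP-Seq of the Rosa line and 4.92, 8.64 and 10.3 CPM in the Camk2a line (-1.27 ± 0.23, adjusted p = 2.89e-06 by edgeR). Phox2a, a homeodomain factor of noradrenergic neurons, had 20.8, 23.6 and 20.6 CPM and 12.5, 7.92 and 8.49 CPM (-1.08 ± 0.21, adjusted p = 1.43e-05 by edgeR). Foxe3, a forkhead factor of the lens, and Igf2bp3, an RNA-binding protein of the fetus, fell by 1.18 and 1.08 on the log2 scale. In single ChIP-Seq, none of Arhgef16, Gsc, Foxe3, Phox2a and Igf2bp3 was called, with adjusted p from 0.373 to 0.847 in edgeR. Of the regions named from the gene lists, Kcnq1 (-0.95 ± 0.21) was lower in tChIP-Seq of the Camk2a line, and Zfp64 (0.68 ± 0.17) and Zfp296 (0.48 ± 0.14) were higher. The call of Zfp296 was lost in the Wald test of DESeq2 and with library totals. It was also lost when tChIP-Seq replicate 2 or 3 of the Rosa line or replicate 1 of the Camk2a line was left out.

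Within the Wnt family the regions went both ways between the lines. The Wnt11 region of 2182 bp had 70.0, 62.2 and 57.0 CPM in tChIP-Seq of the Rosa line and 33.5, 36.0 and 28.4 CPM in that of the Camk2a line (-0.89 ± 0.12, adjusted p = 2.06e-09 by edgeR). The Wnt7b region of 2336 bp had 76.6, 65.9 and 74.8 CPM and 108, 102 and 96.0 CPM (0.56 ± 0.09, adjusted p = 1.24e-07 by edgeR). The libraries of the 2 lines did not overlap in either region, and the other 7 Wnt regions at a TSS were not called.

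In single ChIP-Seq, 26 of the 1076 regions (2.42%) were higher in the Camk2a line, where 0.928% of all regions were, and 0 were lower in edgeR, where 1.22% of all regions were. At an unadjusted p under 0.05, 293 were higher and 5 lower, and the Wald test of DESeq2 called 6 higher and 0 lower. The median log2 fold change of the 1076 regions was 0.21. Eligible regions in the lowest decile of height, 49.0% of which were among the 1076, had a median of 0.24, and those in the tallest decile -0.09, so that height moved with this value. The number of higher calls was 12 without replicate 2 and 13 without replicate 3 of single ChIP-Seq in the Rosa line, and 13 and 11 without the same replicates in the Camk2a line.

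Of the 26 regions, 8 were also higher and 5 were lower in the Camk2a line in tChIP-Seq. Of these 5, 4 had the largest ratios of all 1076 regions in the Rosa line, from 3.21 to 4.02: Sfi1, the region near Ly6c2 and 2 regions at and near AY036118. The region at AY036118 itself and Cyp26b1, as well as the Wnt, Fgf, Gdf and Frizzled regions above, were named after their values had been seen. Near Ly6c2, single ChIP-Seq gave 21.3, 14.3 and 14.9 CPM in the Rosa line and 84.8, 82.9 and 87.6 CPM in the Camk2a line (2.32 ± 0.09, adjusted p = 1.15e-66 by edgeR). In tChIP-Seq it gave 232, 198 and 235 CPM and 140, 143 and 159 CPM, in the opposite order (-0.52 ± 0.06, adjusted p = 5.3e-11 by edgeR). The remaining region was at Cyp26b1, which encodes an enzyme that degrades retinoic acid (0.50 ± 0.12 with single ChIP-Seq, but -0.38 ± 0.12 with tChIP-Seq).

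Arsi, an arylsulfatase family gene on chromosome 18, was higher in the Camk2a line in both assays. Its region had 5.35, 6.83 and 6.17 CPM in single ChIP-Seq of the Rosa line and 22.8, 23.6 and 26.1 CPM in that of the Camk2a line (1.94 ± 0.15, adjusted p = 1.7e-26 by edgeR). In tChIP-Seq it had 14.8, 14.3 and 15.1 CPM and 37.7, 39.2 and 42.1 CPM (1.50 ± 0.17, adjusted p = 2.14e-12 by edgeR). The region lies 11975 bp from that of Camk2a, whose promoter drives Cre in the Camk2a line, and the Camk2a region was itself higher in single ChIP-Seq by 0.52 ± 0.04. On the other side, 61780 bp away, Tcof1 had 0.02 ± 0.08. The part of the transgene in these values was not tested.

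**Figure D5:**
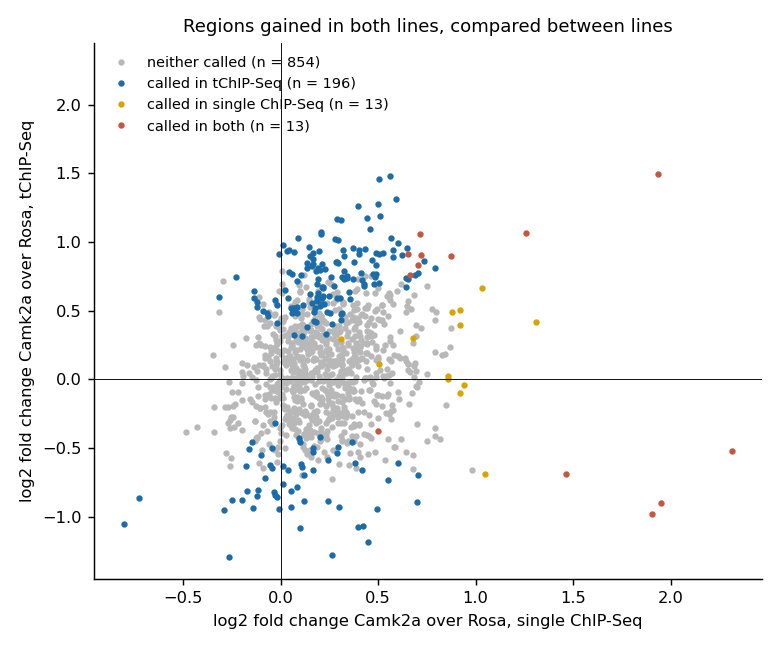
Log2 fold change of the Camk2a line over the Rosa line, with single ChIP-Seq on the x axis and tChIP-Seq on the y axis, for the 1076 regions gained in both lines, coloured by whether edgeR called them (adjusted p under 0.01). The 196 regions called in tChIP-Seq alone (blue) spread along the y axis on both sides of 0, and the 13 called in both (red) include 5 that are higher in single ChIP-Seq and lower in tChIP-Seq of the Camk2a line.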

How the data were processed

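H3K4me3 was measured in 12 libraries of mouse cerebral cortex, 3 in each of 4 groups taken from the labels. The other 12 samples of the series (input and FLAG ChIP) were not analysed here. The deposited values are whole-number read counts per peak region in 1 list of regions for all libraries. The authors trimmed reads, removed repeats with Bowtie2 2.1.0, mapped with Bowtie 1.0.0 to mm9, removed duplicates with SAMtools (0.1.19 in the submitters' processing notes, a later version in the study's methods), called peaks with MACS and counted with bedtools 2.17.0. How peaks were merged into 1 list is not given in the sources used here.

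From the counts, CPM were computed on each library's total, and regions were chosen by ratio with no test. Depth ranged from 1457261 to 8644574 counts. Regions with few counts have imprecise ratios, so membership near the threshold is uncertain. Classes came from GENCODE M1 on mm9 (an exon, intron or start site of any transcript) and composition from the mm9 genome. Copies were sought with minimap2 2.31. The lines were compared with edgeR 4.0.16 (R 4.3.3, quasi-likelihood, TMM, 6 libraries per fit, no filter). Whether replicates are separate lysates is not stated for each library, so p-values measure only the spread between these libraries. The members and gene lists were chosen with earlier results of these data known.

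Regions named in the text were the 12 with the highest lesser ratio, the 5 with the highest single ChIP-Seq CPM, 3 on each side of the threshold, the 5 (tChIP-Seq) and 3 (single ChIP-Seq) largest called changes in each direction with separate libraries, and up to 4 per gene list. Some of these are not reported here. Alternatives were other thresholds, minimums, scalings, tests (DESeq2 1.42.0), a replicate block, thinned counts and leaving out each library. Libraries with the same number in different groups did not deviate together (r from -0.02 to 0.04).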

Additional observations from a re-analysis of the deposited data

How the results depend on the processing

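The 1076 regions became 645 at a ratio of 0.8, 371 at 1, 559 with 20 counts, 1967 with no minimum, 400 with counts thinned to the lowest total and 440 with an equal CPM minimum (chosen after seeing the data), and 1057 to 1210 without each replicate. The median width, GC content and CG density were 916 bp, 60.7% and 55.7 per kb at a ratio of 1, 1263 bp, 60.3% and 57.0 per kb with 20 counts, and 1335.5 bp, 60.0% and 56.2 per kb with the CPM minimum. TMM factors gave 980 bp and 59.8%, and leaving out replicates 977 to 986.5 bp, 59.2% to 59.5% and 49.8 to 50.6 per kb. The share with a TSS was 57.9% within 1000 bp and 66.1% with the CPM minimum. In tChIP-Seq, higher and lower calls numbered 71 and 31 in DESeq2, 230 and 101 at an adjusted p under 0.05, 80 and 31 among regions passing the CPM minimum, and 108 to 134 and 43 to 59 without each replicate. In single ChIP-Seq, higher calls numbered 6, 78 (with 1 lower), 12, and 11 to 24 (0 lower). The cause was not tested. Libraries with the same replicate number did not deviate together, which does not show whether they share a lysate. With a replicate block, 141 regions were higher and 57 lower in tChIP-Seq, and 26 and 0 in single ChIP-Seq. Among the regions named in the text by the rules above, no direction of a called change reversed under the alternatives run, and Chst5 and Zfp296 lost their call under some. Regions named outside these rules, such as those of Wnt7b, Wnt11, Cyp26b1 and Camk2a, were not checked in this way. Low counts in tChIP-Seq of the Rosa line limit the precision of single regions.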

Other observations

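On the X chromosome, left out by the rule, 12 of 472 regions with 10 or more counts in each library reached a log2 ratio of 0.6 in both lines (2.54%). They included the start regions or gene bodies of Bcor, a transcriptional corepressor, Gpc3, a cell surface proteoglycan, and Tsix, the antisense transcript of the X inactivation centre. Of the 2695 regions on chromosomes 1 to 19 with fewer than 10 counts in some library, 891 had ratios of 0.6 or more in both lines.

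Regions gained in 1 line alone were less extreme in height. The 1791 gained in the Rosa line alone had a median width of 1300 bp and 15.4 CPM in single ChIP-Seq, and 67.6% overlapped a TSS. The 745 gained in the Camk2a line alone had medians of 1997 bp and 31.2 CPM, and 73.0% overlapped a TSS.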
